A study of Mus musculus with 6 samples.

Results

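The 10 genes described here encode liver acute phase proteins that belong neither to complement nor to the serpins: the serum amyloid A genes Saa1, Saa2, Saa3 and Saa4, the orosomucoids Orm1 and Orm2, haptoglobin (Hp), hemopexin (Hpx), lipocalin 2 (Lcn2) and serum amyloid P component (Apcs). They were chosen by symbol from the 23412 genes of a raw count table, and all 10 were found. Transcripts were measured by RNA sequencing of whole liver from C57BL/6J mice of 8 weeks, a widely used inbred strain, given a high-fat diet for 4 weeks. The HFD_Lira3d group (3 libraries) then received liraglutide, an agonist of the glucagon-like peptide 1 receptor, under the skin at 300 µg/kg over 3 days, and the HFD_PBS3d group (3 libraries) received phosphate-buffered saline (PBS). Both groups carried the high-fat diet, no genetic change is given for either, and the labels do not give the sex of the mice. Libraries are named here by group and column number: Lira161, Lira162 and Lira164, and PBS155, PBS157 and PBS158.

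In the acute phase response, injury or infection changes the set of plasma proteins that hepatocytes secrete. Interleukin 6 and related cytokines act through Janus kinases and STAT3, and interleukin 1 and tumour necrosis factor act through NF-kB, while transcription factors of the C/EBP family bind many acute phase promoters. Proteins whose plasma level rises are called positive acute phase proteins, and those whose level falls, such as albumin, are called negative. In mice the serum amyloid A and orosomucoid genes are among the most strongly inducible, whereas haptoglobin and hemopexin are abundant in plasma also without inflammation.

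The Saa genes lie side by side on chromosome 7, and the sequences in front of their start sites are shown because those of Saa1 and Saa2 are closely alike. Sequences are from RefSeq for GRCm38.p6, which is the assembly mm10 with patches, at chr7:46742981-46743230 (minus strand) for Saa1, chr7:46751583-46751789 (plus strand) for Saa2, chr7:46715701-46715926 (minus strand) for Saa3 and chr7:46732604-46732853 (minus strand) for Saa4. Each starts up to 250 bases before the RefSeq start site and ends before the first start site annotated in either RefSeq or GENCODE. Capitals mark matches to TTNNGNAA, a form of the C/EBP binding motif, on either strand.
Saa1: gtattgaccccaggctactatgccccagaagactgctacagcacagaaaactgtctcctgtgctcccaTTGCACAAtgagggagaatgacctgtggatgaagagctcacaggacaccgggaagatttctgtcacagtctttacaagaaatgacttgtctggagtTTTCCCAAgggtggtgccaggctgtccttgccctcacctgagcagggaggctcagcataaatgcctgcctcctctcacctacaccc
Saa2: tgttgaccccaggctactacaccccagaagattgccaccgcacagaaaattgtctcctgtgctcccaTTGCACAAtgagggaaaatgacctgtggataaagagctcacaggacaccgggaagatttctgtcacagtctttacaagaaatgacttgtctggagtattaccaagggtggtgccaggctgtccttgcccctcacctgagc
Saa3: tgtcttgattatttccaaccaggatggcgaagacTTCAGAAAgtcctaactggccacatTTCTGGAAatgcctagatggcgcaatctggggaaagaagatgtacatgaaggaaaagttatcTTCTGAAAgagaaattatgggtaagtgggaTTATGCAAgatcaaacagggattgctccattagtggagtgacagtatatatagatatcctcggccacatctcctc
Saa4: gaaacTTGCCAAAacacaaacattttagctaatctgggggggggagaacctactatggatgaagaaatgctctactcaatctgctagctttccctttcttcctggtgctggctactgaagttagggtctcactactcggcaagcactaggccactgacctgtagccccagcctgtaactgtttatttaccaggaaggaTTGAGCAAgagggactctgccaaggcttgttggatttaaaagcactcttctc
Over the full 250 bases before the RefSeq start site, which for Saa2 and Saa3 include bases not printed, Saa1 and Saa2 were 94.8% identical. The other pairs of Saa promoters were between 40.2% and 44.7% identical. Counted from the RefSeq start site, Saa1 held C/EBP matches beginning at -182 and -86, Saa2 at -183, Saa3 at -216, -191, -129 and -99, and Saa4 at -245 and -52. Of 32851 RefSeq promoter windows, 36.8% held at least 1 such match, so that a match by itself sets no gene apart.

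Total counts per library lay between 20888991 and 27007182. Of all genes, 12626 passed the filter on low counts and entered the test. Hepatocyte markers summed to between 95218 and 124690 CPM (read counts scaled to a library of standard size), and albumin alone to between 41037 and 76534 CPM. Defining markers of fat tissue were at or near 0 over all 6 libraries together (Adipoq 7 counts, Plin1 3 counts, Lep 1 count, Retn 0 counts), as were some neutrophil granule genes (Mpo 1 count, Camp 2, Ltf 2 and Ngp 3). Others of the neutrophil and monocyte list held more, among them Elane (16 counts), S100a8 (19), S100a9 (56) and Ccr2 (205). Macrophage marker levels varied between libraries, and their values are given beside Saa3. Nothing in the labels says whether libraries of a group came from separate mice, and a p-value here speaks only of variation from library to library, which may be technical.

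None of the 10 genes passed an adjusted p of 0.05 by edgeR's quasi-likelihood test between liraglutide and PBS, against 8.77% of all genes tested. At an unadjusted p under 0.05 there was 1, Saa4 (25.6% of all genes). DESeq2's Wald test called 1, again Saa4, while over all genes it called 5.88% higher and 6.57% lower. Limma-voom called 0, against 4.06% of all genes higher and 4.93% lower. The fitted log2 fold change was below 0 for 7 genes and above 0 for 3, with a median of -0.93 beside 0.011 over all genes tested. Groups did not overlap for 1 of the 10, Saa4, against 31.3% of all genes (16.4% with the liraglutide libraries lower). The spread between libraries of a group was wide: the SD of log2 CPM within groups had a median of 0.78 over the 10 genes and 0.18 over all genes tested, and for 4 of the 10 (Saa1, Saa2, Orm1 and Orm2) it exceeded the 99th percentile of all genes, 0.9.

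**Figure D1:**
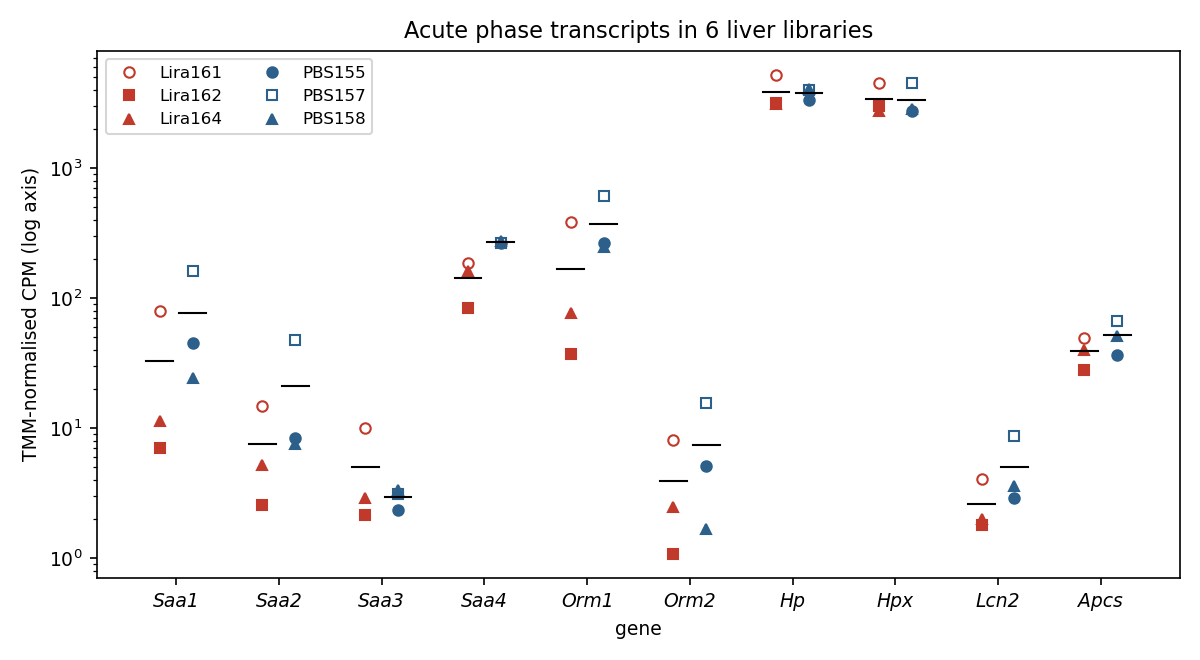
Level of each of the 10 genes in every library, as TMM-normalised CPM on a log axis, with liraglutide and PBS libraries in separate colours, a symbol per library and the group mean as a line. Saa4 is the gene whose groups do not overlap, Hp and Hpx lie within a narrow band, and the libraries of both groups spread widely for Saa1, Saa2, Orm1 and Orm2.

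Saa1 and Saa2 encode the inducible serum amyloid A proteins, small apolipoproteins that travel on high-density lipoprotein during inflammation. Saa1 (chromosome 7, 46740497 to 46742980, minus strand, GRCm38) stood at 80.0, 7.10 and 11.5 CPM in Lira161, Lira162 and Lira164, and at 45.2, 163.1 and 24.2 CPM in PBS155, PBS157 and PBS158. Its highest library was a PBS library and its lowest 2 were liraglutide libraries, but Lira161 lay above PBS155 and PBS158, so the groups overlapped. The means were 32.9 ± 40.9 CPM under liraglutide and 77.5 ± 74.9 CPM under PBS (SD, n = 3 each). Between the groups the log2 fold change was -1.25 ± 1.27 (SE), with a 95% interval from -4.60 to 2.10 and an adjusted p of 0.600 (edgeR), so the difference was smaller than the spread between libraries could resolve.

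Saa2 (chromosome 7, 46751790 to 46754313, plus strand), the neighbour that is transcribed away from Saa1, stood at 14.8, 2.55 and 5.21 CPM in the liraglutide libraries in the same order and at 8.39, 47.7 and 7.54 CPM in the PBS libraries. It had the same high and low libraries as Saa1, with PBS157 on top, Lira161 next and Lira162 last. Its log2 fold change was -1.52 ± 1.05, adjusted p 0.436 (edgeR). From lowest to highest library Saa1 spanned 23.0-fold and Saa2 18.7-fold.

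The fold changes of both genes rested on single libraries. Without PBS157 the log2 fold change was -0.09 for Saa1 and -0.10 for Saa2, with adjusted p of 0.976 and 0.955. Without Lira161 it was -3.06 and -2.46, with adjusted p of 0.191 and 0.288 (edgeR). Neither gene passed the threshold in any of the 6 fits that left out a library.

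Reads of Saa1 and Saa2 cannot be separated with certainty, since their coding sequences are 95.1% identical (348 of 366 aligned bases) and 31.1% of the 50-base windows of the Saa1 transcript also occur in Saa2. The sources used here do not say how the authors counted reads that match both. Summed to 1 feature, the pair had a log2 fold change of -1.30 ± 1.23 and an adjusted p of 0.572 (edgeR). Saa1 held 84.4%, 73.6% and 68.8% of the summed counts in Lira161, Lira162 and Lira164, and 84.3%, 77.4% and 76.2% in PBS155, PBS157 and PBS158. The mean share was 75.6% ± 8.00 under liraglutide and 79.3% ± 4.39 under PBS (exact two-sided permutation test, p = 0.5, where 3 against 3 libraries cannot go below 0.1).

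Saa4 encodes the constitutive serum amyloid A, a high-density lipoprotein component that inflammation induces little. At 46727998 to 46732603 on chromosome 7, minus strand, it stood at 185.6, 84.7 and 161.6 CPM in Lira161, Lira162 and Lira164, and at 267.0, 264.0 and 277.5 CPM in PBS155, PBS157 and PBS158. Every liraglutide library lay below every PBS library, and the PBS libraries lay within 1.05-fold of each other while the liraglutide libraries spanned 2.19-fold. The means were 144.0 ± 52.7 and 269.5 ± 7.07 CPM (SD, n = 3 each). With a log2 fold change of -0.90 ± 0.26 (95% interval -1.53 to -0.28), Saa4 had an adjusted p of 0.0821 and did not pass edgeR's test.

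The call on Saa4 depended on the tool and on Lira162, its lowest library. DESeq2's Wald test gave a log2 fold change of -0.91 and an adjusted p of 0.00139, and limma-voom an adjusted p of 0.051. Without Lira162 the edgeR fold change was smaller in size, -0.64, but passed with an adjusted p of 0.0296. In the 5 fits without another library it did not pass, and over all 6 the log2 fold change lay between -1.13 and -0.64. The Saa4 coding sequence is 63.8% identical to that of Saa1 and 0 of the 50-base windows of the Saa1 transcript occur in Saa4.

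Some marker genes of other cells also differed between the groups. Erythroid markers summed to 100.4, 42.9 and 51.4 CPM in Lira161, Lira162 and Lira164, and to 157.4, 165.0 and 151.9 CPM in PBS155, PBS157 and PBS158, lower under liraglutide as Saa4 was. Of the 9 listed, 2 were tested. Alas2 was called lower (adjusted p 0.0264, edgeR). The globin gene Beta-s, at means of 34.6 CPM under liraglutide and 73.8 CPM under PBS, was not called (adjusted p 0.231, edgeR). Hba-a1, Hba-a2, Hbb-b1 and Hbb-b2 were listed at 0. The 6 bile duct markers summed to between 26.6 and 28.6 CPM under liraglutide and between 42.0 and 50.9 CPM under PBS. Most of these sums came from Spp1, called lower (adjusted p 0.00508, edgeR), at means of 20.5 and 36.3 CPM. All 5 bile duct markers tested had a log2 fold change below 0, but Sox9, Epcam, Krt7 and Krt19 were not called (adjusted p 0.148, 0.565, 0.586 and 0.620, edgeR). Pancreas acinar markers, 1 of 6 tested and 3 at 0, summed to between 6.95 and 9.40 CPM under liraglutide and between 10.1 and 22.3 CPM under PBS, with 0 called by edgeR and 1 at an unadjusted p under 0.05. Nearly all of these sums came from Cela1, the marker tested. Lymphocyte markers were mixed: of 6 tested, 4 had a log2 fold change above 0 and 2 below. The only one called by edgeR was Cd4, lower (adjusted p 0.0116), at means of 0.60 CPM under liraglutide and 2.33 CPM under PBS. Nkg7 stood at 1.265 (adjusted p 0.144, edgeR). The sums of the 10 lymphocyte markers overlapped between groups. All 8 markers of sinusoidal endothelium had a log2 fold change above 0, with a median of 0.74, and 1 of them was called higher (Clec4g, adjusted p 0.0250, edgeR). Their sums overlapped, at 210.4 to 328.3 CPM under liraglutide and 123.6 to 235.9 CPM under PBS. Fat cell markers were mixed: of 4 tested, Pnpla2, which many tissues express and which made up most of the sum, and Fabp4 were called higher, whereas Cfd stood at -2.47 (adjusted p 0.0544) and Lipe at -0.22. The part of these cells in the Saa4 values was not tested.

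Saa3 encodes a serum amyloid A made mostly outside hepatocytes, by macrophages and fat cells among others. At 46711998 to 46715700 on chromosome 7, minus strand, it stood at 10.03, 2.16 and 2.92 CPM in Lira161, Lira162 and Lira164, and at 2.35, 3.13 and 3.36 CPM in PBS155, PBS157 and PBS158. Lira161 lay well above every other library, and the remaining 5 lay close together. A log2 fold change of 0.76 ± 0.59 (adjusted p 0.468, edgeR) turned to -0.21 without Lira161 (adjusted p 0.712).

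Macrophage and Kupffer cell markers were ordered otherwise than Saa3. The 12 markers summed to 482.8, 307.4 and 463.9 CPM in Lira161, Lira162 and Lira164, and to 542.7, 223.8 and 139.4 CPM in PBS155, PBS157 and PBS158. PBS155 had the highest sum with Saa3 at 2.35 CPM. None of the 12 passed edgeR's test, 0 had an unadjusted p under 0.05, and their part in the Saa3 values was not tested. In whole tissue, fewer cells of a type and less RNA per cell cannot be told apart.

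Orm1 and Orm2 encode orosomucoids, also called alpha-1-acid glycoproteins, plasma carriers of lipophilic molecules and drugs that lie on chromosome 4 with another copy, Orm3, between them. Orm1 (63344560 to 63348163, plus strand) stood at 388.6, 37.1 and 77.1 CPM in Lira161, Lira162 and Lira164, and at 267.9, 607.7 and 247.4 CPM in PBS155, PBS157 and PBS158. Lira162 and Lira164 lay below all PBS libraries, Lira161 lay above 2 of the 3, and within the liraglutide group Orm1 spanned 10.5-fold against 2.46-fold within PBS. The log2 fold change was -1.16 ± 0.99 (95% interval -3.70 to 1.38), adjusted p 0.523 (edgeR). It was -2.71 without Lira161, with an adjusted p of 0.0866, and -0.62 without PBS157, with an adjusted p of 0.815.

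Orm2 (63362449 to 63365878, plus strand) was far scarcer, at 8.10, 1.08 and 2.499 CPM in the liraglutide libraries and 5.13, 15.7 and 1.68 CPM in the PBS libraries. PBS157 and Lira161 were again the highest, while the lowest PBS library, PBS158, lay below Lira164. A log2 fold change of -0.97 ± 1.06 (adjusted p 0.623, edgeR) turned to 0.15 without PBS157. In front of Orm2, whose promoter is shown because it carries paired C/EBP matches at -120 and -108, RefSeq gives the following sequence at chr4:63362199-63362448 (plus strand, GRCm38.p6), with the matches in capitals.
Orm2: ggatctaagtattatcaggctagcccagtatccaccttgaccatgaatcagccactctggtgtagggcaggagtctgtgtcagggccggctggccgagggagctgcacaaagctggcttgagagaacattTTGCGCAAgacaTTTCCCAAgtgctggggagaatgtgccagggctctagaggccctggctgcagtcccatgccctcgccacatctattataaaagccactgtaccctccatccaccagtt
A TATAAA match, which 12.4% of all promoter windows hold, began at -33 in Orm2. Of the 10 genes 8 matched the RefSeq promoter table, all but Orm1 and Hp.

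The orosomucoid coding sequences are 89.9% identical between Orm1 and Orm2, and 20.4% of the 50-base windows of Orm1 occur in Orm2. Orm1 held between 96.9% and 99.3% of the counts of the pair in all 6 libraries, with means of 97.3% ± 0.567 under liraglutide and 98.3% ± 0.934 under PBS (SD, n = 3 each, exact two-sided permutation test, p = 0.2). With so uneven a split, Orm2 values are uncertain. Summed over Orm1, Orm2 and Orm3, the log2 fold change was -1.16 ± 0.99, adjusted p 0.525 (edgeR).

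Haptoglobin binds free haemoglobin and hemopexin binds free haem, and both deliver their cargo to receptors for clearance. Hp (chromosome 8, 109575128 to 109579172, minus strand) stood at 5228, 3171 and 3109.5 CPM in Lira161, Lira162 and Lira164, and at 3313, 3986 and 4023 CPM in PBS155, PBS157 and PBS158. Lira161 was the highest library and the other 2 liraglutide libraries the lowest, so that the group means of 3836 ± 1206 and 3774 ± 400 CPM lay close together. The log2 fold change was 0.02 ± 0.21, with a 95% interval that runs from 0.733-fold to 1.41-fold and an adjusted p of 0.959 (edgeR). Hp ranked 30 by mean CPM among the genes tested.

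Hpx (chromosome 7, 105591613 to 105600137, minus strand) stood at 4503, 3008 and 2755 CPM in the liraglutide libraries and 2757, 4505 and 2834 CPM in the PBS libraries. Lira161 and PBS157 were equally high and the other 4 lay within a narrow range, 2 of them from each group. The means were 3422 ± 945 and 3365 ± 988 CPM. The log2 fold change was 0.02 ± 0.25, with an interval from 0.683-fold to 1.51-fold and an adjusted p of 0.966 (edgeR). For both carriers the interval excludes a 2-fold difference in either direction, and the sign of the estimate turned with the library left out.

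Lcn2 encodes a lipocalin that binds bacterial siderophores and so withholds iron, and both hepatocytes and neutrophils can make it. At 32384633 to 32388252 on chromosome 2, minus strand, it stood at 4.05, 1.81 and 2.00 CPM in Lira161, Lira162 and Lira164, and at 2.89, 8.65 and 3.60 CPM in PBS155, PBS157 and PBS158. PBS157 alone lay above Lira161, and the other PBS libraries lay between Lira161 and the lower 2 liraglutide libraries. For Lcn2 the log2 fold change was -0.96 ± 0.50 (95% interval -2.12 to 0.21), adjusted p 0.279 (edgeR), and -0.32 without PBS157. The 11 neutrophil and monocyte markers in the table summed to between 1.44 and 3.60 CPM, with 2 of them passing the filter, 0 called by edgeR and 0 at an unadjusted p under 0.05. The library with the highest sum, PBS157, was also the one with the highest Lcn2, but Lira161 was close at 3.33 CPM. In PBS157 Ccr2 alone gave 1.88 CPM of the sum, and S100a9 was higher in Lira161 (0.68 CPM) than in PBS157 (0.64 CPM). Such low values do not order the libraries reliably, and the part of such cells was not tested.

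Apcs encodes serum amyloid P component, a pentraxin that in mice takes the role of an acute phase reactant and binds amyloid fibrils. At 172893961 to 172895041 on chromosome 1, minus strand, it stood at 49.1, 28.2 and 39.9 CPM in Lira161, Lira162 and Lira164, and at 36.9, 66.6 and 51.5 CPM in PBS155, PBS157 and PBS158. The groups overlapped at PBS155, which lay below 2 liraglutide libraries. For Apcs the log2 fold change was -0.40 ± 0.27 (95% interval -1.05 to 0.24), adjusted p 0.402 (edgeR).

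**Figure D2:**
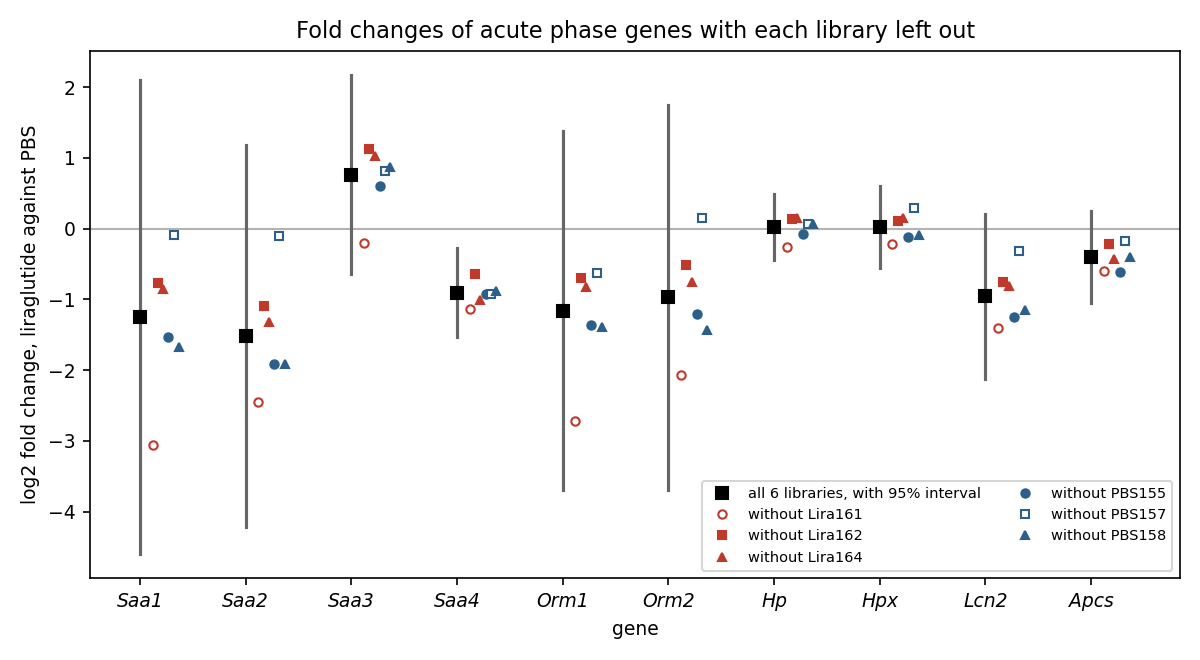
Log2 fold change of liraglutide against PBS for each of the 10 genes, with the 95% interval as a line and the values obtained with each library left out as small symbols. The intervals of Saa1, Saa2, Orm1 and Orm2 have upper limits of 1.19 to 2.10 and lower limits of -4.60 to -3.70, Hp and Hpx are centred on 0, and the interval of Saa4 from -1.53 to -0.28 lies below 0.

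Across the 10 genes the same libraries recurred at the extremes. PBS157 held the highest value of 7 genes (Saa1, Saa2, Orm1, Orm2, Hpx, Lcn2 and Apcs), Lira161 of 2 (Saa3 and Hp) and PBS158 of 1 (Saa4). Lira162 held the lowest value of 8 genes and Lira164 that of the other 2, Hp and Hpx. Within the liraglutide group Lira161 was the highest library for all 10 genes. The median over the genes of log2 CPM minus the gene's own mean was 0.58, -1.01 and -0.43 in Lira161, Lira162 and Lira164, and -0.15, 0.98 and 0.04 in PBS155, PBS157 and PBS158. Libraries of both treatments thus lay above and below the genes' means, and the labels give no batch, animal or infection status that these libraries could be set against. How often each library was the extreme over all genes tested was not counted, so the recurrence is not shown to be particular to these genes. Saa1 with Saa2, and Orm1 with Orm2, also share sequence, so their values are not fully separate.

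**Figure D3:**
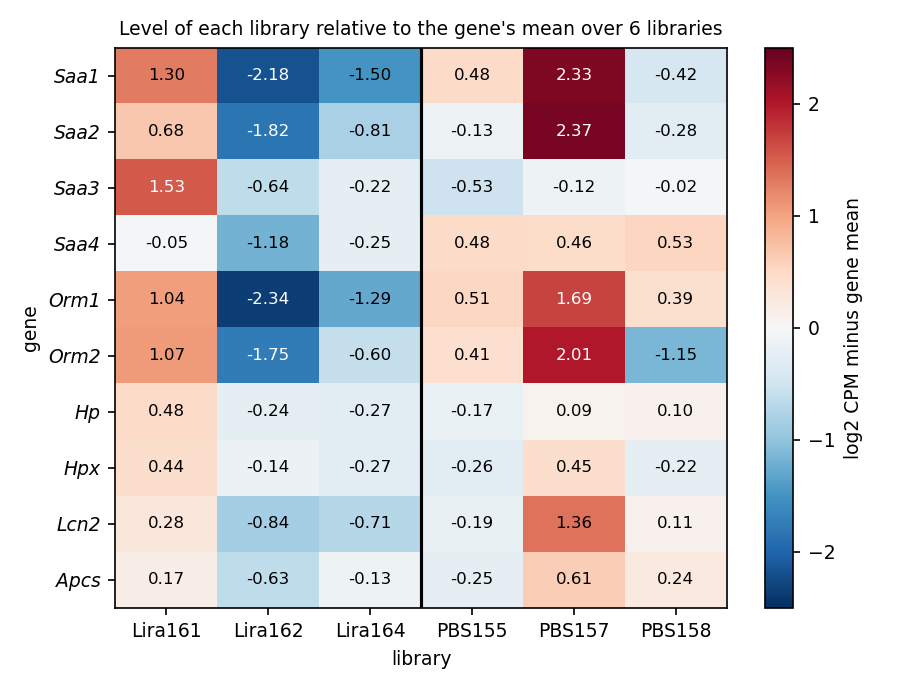
Log2 CPM of each gene in each library minus the gene's mean over the 6 libraries, as a colour and a printed value, with genes in rows and libraries in columns. PBS157 and Lira161 stand high and Lira162 stands low for Saa1, Saa2, Orm1 and Orm2, whereas Hp and Hpx stay near 0 and Saa3 stands high in Lira161.

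Likeness of profile was measured as the root mean square difference over the 6 libraries of log2 CPM centred on each gene's mean, a description with no test. Among the 10 genes, Hp and Hpx were closest (0.21), followed by pairs of Apcs with Hp (0.31), Hpx (0.31), Lcn2 (0.40) and Saa4 (0.41). The measure is not scaled to spread, so genes that vary little lie close whatever their pattern. Over the 6 libraries the SD of log2 CPM was 0.29 for Hp, 0.35 for Hpx and 0.43 for Apcs, against 1.70 for Saa1 and 1.52 for Orm1. Among the 4 genes of widest spread, Saa1 and Orm1 differed by 0.45, Saa2 and Orm2 by 0.48 and Saa1 and Saa2 by 0.48, while Saa1 was far from Saa4 (1.21) and Saa3 (1.37). Among 9258 genes with a mean of at least 5 CPM, those most like Saa1 were Orm1, Saa2 and Ugt2b38 (0.49), a glucuronosyltransferase. The median over all of them was 1.56, a value set largely by the spread of Saa1 itself. Those most like Orm1 were Mup8 (0.24), Mup14 (0.37) and Saa1, and those most like Saa2 were Mup15 (0.40), Orm2 and Saa1. Mup genes encode major urinary proteins, pheromone carriers secreted by the liver. Mup14 stood at 864.1, 163.2 and 311.1 CPM in Lira161, Lira162 and Lira164, and at 751.2, 1445 and 845.9 CPM in PBS155, PBS157 and PBS158, thus with the same high and low libraries as Orm1. The Mup and Ugt2b genes form families of close copies, so their single-gene counts are uncertain.

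Levels of different genes were compared as CPM per kilobase of annotated exon in the PBS group. Hp (2350.2 ± 249) and Hpx (2245 ± 659) did not differ beyond their spread, whereas Orm1 (483.0 ± 261) and Saa4 (128.7 ± 3.38) were apart by more than either SD. Apcs followed at 53.2 ± 15.3 and Saa1 at 31.3 ± 30.2, then Orm2 at 9.67 ± 9.41, Saa2 at 8.43 ± 9.12, Lcn2 at 1.92 ± 1.20 and Saa3 at 1.13 ± 0.20. From Apcs down, each gene overlapped the next in order within their SDs: Apcs and Saa1, Saa1 and Orm2, Orm2 and Saa2, Saa2 and Lcn2, and Lcn2 and Saa3. The exon union of Saa1 and Saa2 includes transcripts with retained introns, and per kilobase of the longest protein-coding transcript Saa1 stood at 127.3 and Saa2 at 32.6, level with Saa4 for Saa1.

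Together the 10 genes held 1.04%, 0.647% and 0.641% of all counts in Lira161, Lira162 and Lira164, and 0.678%, 0.953% and 0.711% in PBS155, PBS157 and PBS158. The group means of 0.776% ± 0.228 and 0.780% ± 0.1502 did not differ beyond the spread (exact two-sided permutation test, p = 1.0). Hp and Hpx made up between 87.8% and 97.4% of these counts. The other 8 genes held 0.0735%, 0.0168% and 0.0315% of all counts in the liraglutide libraries and 0.0642%, 0.116% and 0.0587% in the PBS libraries, with Lira161 inside the PBS range and the other 2 below it.

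The remaining acute phase genes were counted in 8 lists by role, in which 115 of 122 genes were tested, 5 were called higher and 6 lower under liraglutide (9.57%, against 8.77% of all genes). All 6 lower genes were in the list of complement, fibrinogen and serpins, of which 22 were tested (over all genes 4.69% were called lower and 4.08% higher), with a median log2 fold change of -0.36. They included Serpina1c (-0.76 ± 0.15, adjusted p 0.0159) and Serpina1d (-0.66, adjusted p 0.0212), copies of the alpha-1-antitrypsin gene whose reads may be exchanged, the complement protease C1s (-0.60, adjusted p 0.0223), and Serpina10 (-0.47, adjusted p 0.0344, edgeR), an inhibitor of coagulation proteases. Saa4 had the same direction and a larger fold change but a wider spread. The count of 6 fell to 2 without Lira161, 0 without Lira162, 1 without PBS157 and 0 without PBS158. It was 10 with DESeq2, which called 6.57% of all genes lower.

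Among 18 other acute phase proteins, edgeR called 1 higher and 0 lower, with 6 at an unadjusted p under 0.05, while DESeq2 called 2 higher and 3 lower and limma-voom 1 higher and 2 lower. The gene that edgeR called was Hamp, which encodes the iron hormone hepcidin. Hamp stood at 1072, 1320 and 1103 CPM in Lira161, Lira162 and Lira164, and at 482.8, 350.4 and 681.2 CPM in PBS155, PBS157 and PBS158, so that the groups were apart. Its log2 fold change was 1.21 ± 0.23, adjusted p 0.0183 (edgeR). PBS157, the highest library for 7 of the 10 acute phase genes, was the lowest for Hamp. Hamp passed in 3 of the 6 fits without a library, with adjusted p up to 0.0779. The metallothioneins Mt1 and Mt2, zinc-binding proteins, had groups that did not overlap, lower under liraglutide, but did not pass edgeR's test. Mt1 stood at -1.25 ± 0.37 (adjusted p 0.0995) and Mt2 at -2.01 ± 0.49 (adjusted p 0.0668). Lbp, of the same list, also had groups apart but higher under liraglutide, at 0.501 ± 0.14 (adjusted p 0.0574, edgeR), and was not called. Mbl2 (-0.46) and Ambp (-0.34) had groups apart, lower under liraglutide, and were not called. All of these uncalled genes were named here after their values were seen. Over all genes tested, 16.4% had groups that did not overlap with liraglutide lower, and 14.9% with liraglutide higher. Of 13 negative acute phase proteins edgeR called 0, with 3 at an unadjusted p under 0.05, DESeq2 calling 3 and limma-voom 0. Albumin (Alb) stood at a log2 fold change of -0.42 ± 0.19 (adjusted p 0.199) and apolipoprotein A1 (Apoa1) at 0.18 (adjusted p 0.511).

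The inducing cytokines were scarce. Il6 had 6 counts in all 6 libraries together, Osm 4, Tnf 20 and Il22 0, and 4 of 11 cytokine genes passed the filter. Of these 0 were called by edgeR, DESeq2 or limma-voom and 0 had an unadjusted p under 0.05, with Ctf1, cardiotrophin 1, at 0.19 (adjusted p 0.517) and Il1a at -0.43 (adjusted p 0.558). For the 7 cytokines below the filter a difference was not detectable at this depth.

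Downstream of the cytokines, edgeR called 1 gene in each of 3 lists, each time higher under liraglutide, where 4.08% of all genes were called higher and 8.77% in either direction. With 17, 14 and 12 genes tested, a single call per list is too few to be set apart from these shares. DESeq2 called 2 higher in each of these lists and 2 lower among receptors and Janus kinases, and without Lira164 edgeR called 3 lower there and 1 lower among transcription factors. Of 17 receptors and Janus kinases it was Il22ra1, the interleukin 22 receptor chain, at 20.3, 15.5 and 14.9 CPM in Lira161, Lira162 and Lira164 and at 8.90, 7.66 and 6.53 CPM in PBS155, PBS157 and PBS158. The lowest liraglutide library was well above the highest PBS library, and the log2 fold change of 1.13 ± 0.17 (adjusted p 0.00633, edgeR) passed in 6 of 6 fits without a library. Of 14 transcription factors it was Hnf4a, a nuclear receptor that maintains hepatocyte gene expression (0.53 ± 0.13, adjusted p 0.0338), and of 12 feedback inhibitors Zfp36, which promotes decay of cytokine transcripts (0.53 ± 0.14, adjusted p 0.0450). Hnf4a passed in 2 and Zfp36 in 1 of the 6 fits without a library.

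The list of receptors and clearance holds 15 genes, among them Cd163 and Lrp1, the receptors for haptoglobin and hemopexin complexes, and genes of haem breakdown, iron export and receptors of other acute phase proteins. Neither receptor was called by edgeR: Cd163 stood at a log2 fold change of 1.02 (adjusted p 0.0793) with groups apart, and Lrp1 at -0.49 (adjusted p 0.133) with groups overlapping. In the list edgeR called 1 gene, where 8.77% of all genes were called in either direction, and DESeq2 called 2 higher and 1 lower. The gene that edgeR called was Blvrb, a biliverdin reductase of haem breakdown. Blvrb rose from 84.7 ± 7.85 CPM under PBS to 133.3 ± 11.7 CPM under liraglutide, a log2 fold change of 0.66 ± 0.11 (adjusted p 0.00932, edgeR) that passed in 6 of 6 fits without a library.

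**Figure D4:**
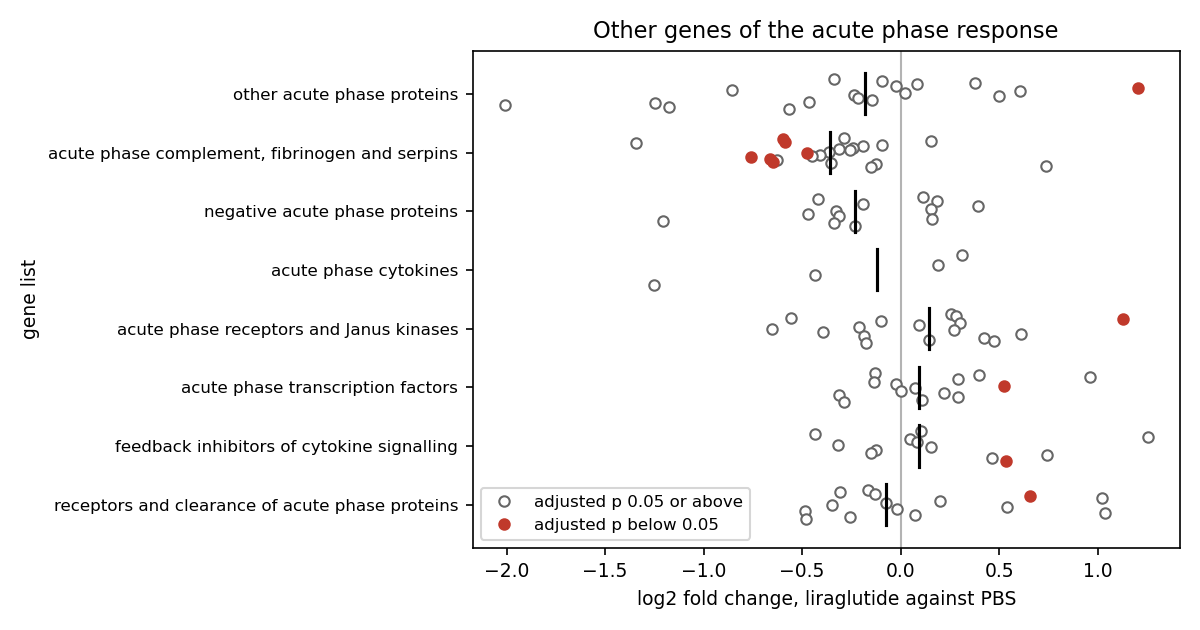
Log2 fold change (horizontal axis) of every tested gene in each of the 8 acute phase lists (vertical axis), with genes called by edgeR as filled points, the others as open points and the list median as a bar. The 6 genes called lower all lie among complement, fibrinogen and serpins, and the 5 called higher lie in 5 other lists.

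No annotated gene overlaps any of the 10. Within 100 kb of a Saa gene, GENCODE M21 annotates 11 other gene starts, 6 of them in the table and 5 tested. Of these 1 was called, Ldha, the lactate dehydrogenase A gene, at a mean of 2195 CPM under liraglutide and 1249 CPM under PBS (log2 fold change 0.81, adjusted p 0.0127, edgeR), the opposite sign to Saa4. Near the Orm genes 1 of 4 neighbours, Akna, was tested, and it was not called (adjusted p 0.530).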

How the data were processed

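The authors deposited raw, unnormalised read counts of 6 liver libraries. STAR and the mouse build mm10 were used, per the submitters' processing notes. The sources used here do not say how reads were counted, on which annotation and strand, or what was done with reads of close copies. Column names carry a group and a number that matches no triplicate number, so columns were assigned to groups only.

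Genes kept by edgeR's filterByExpr (12626 of 16949 with a count) were fitted with edgeR 4.0.16 in R 4.3.3: TMM factors, estimateDisp, robust glmQLFit and two-sided glmQLFTest on the groups. P-values were adjusted over all genes tested by the Benjamini-Hochberg method, and genes under 0.05 are called. The SE is the log2 fold change divided by the square root of F, and 95% intervals use the quasi-likelihood degrees of freedom. CPM are TMM-normalised, and log2 CPM used a prior count of 2. Alternatives were other scalings and filters, DESeq2 1.42.0, limma-voom (limma 3.58.1), removal of the 10 most abundant other genes, summed paralogs and each library left out. The level per protein-coding transcript and the other scalings of summed paralogs were added after seeing the data. On simulated counts for this comparison (12523 genes) the test found 26.9% of the genes given a 1.5-fold change, 70.1% at 2-fold and 93.9% at 4-fold, and 10 of its 137 calls were false. The changed genes were drawn at random from genes above a minimum mean count, so the rates leave out the scarcest genes tested. They cannot be read as rates for the 10 acute phase genes. Their SD of log2 CPM within groups had a median of 0.78, against 0.18 over all genes tested.

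The 10 genes, the lists and the rule for named genes were chosen with earlier results of these data known. That rule names all 10 genes, up to 4 called genes per list by smallest p (or the 2 highest by mean CPM where none was called), the 3 most alike profiles for the 3 genes with the largest SD, and called neighbours within 100 kb. Of 213 list genes, older symbols served for 2, and 2 had no match. Positions are from GENCODE M21 (GRCm38), coding identity is from its transcripts, and promoters are from RefSeq (GRCm38.p6). Promoters were also searched for NF-kB, STAT, HNF1, glucocorticoid receptor and TATA motifs. Figures were drawn with matplotlib 3.10.9.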

Additional observations from a re-analysis of the deposited data

How the results depend on the processing

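With 3 libraries a group and SDs this wide, the test could not resolve the fold changes of Saa1, Saa2, Orm1 and Orm2. No paired analysis was possible because the columns carry no triplicate number that ties libraries to the labels. The number of the 10 genes called lower went from 0 to 1 (Saa4) with DESeq2's Wald test and lay between 0 and 1 with a library left out. Over all genes tested, 4.08% called higher became between 1.27% and 5.42% and 4.69% called lower became between 1.82% and 6.27% with a library left out, and library totals alone gave 609 higher and 456 lower where TMM gave 515 and 592. Over the 8 lists, calls went from 5 higher and 6 lower to 11 and 18 with DESeq2, which called 5.88% of all genes higher and 6.57% lower. With a library left out they went to between 2 and 7 higher and between 0 and 14 lower. The cause of these moves was not tested. The log2 fold change changed sign for Saa3 without Lira161 (-0.21) and for Orm2 without PBS157 (0.15). It changed sign for Hp with limma-voom (-0.012), without Lira161 (-0.27) and without PBS155 (-0.08), and for Hpx without Lira161 (-0.22), PBS155 (-0.11) and PBS158 (-0.09). With a library left out, the log2 fold change lay between -0.21 and 1.12 for Saa3, -2.07 and 0.15 for Orm2, -0.27 and 0.14 for Hp, and -0.22 and 0.29 for Hpx. The difference in the share of all counts held by the 10 genes, -0.0045 percentage points, became 0.0600 without Lira162, 0.0627 without Lira164 and 0.0817 without PBS157, and lay between -0.136 and 0.0817 over the 6. Per kilobase of the longest transcript the PBS level was 1.34 for Saa3, 2806 for Hp and 3.67 for Lcn2. Per kilobase of the longest protein-coding transcript it was 127.3 for Saa1, 32.6 for Saa2, 1.34 for Saa3, 2806 for Hp and 5.52 for Lcn2, since the lengths are shorter.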
